A study of Homo sapiens with 58 samples.

Results

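The comparison set HaCaT-EGFR against HaCaT-vector in serum, on 6 of the 58 arrays of the series. HaCaT is a keratinocyte line from human skin that grows without limit. HaCaT-EGFR is a derivative in which wild-type EGFR was forcibly expressed, and HaCaT-vector is labelled as its mock counterpart. There were 3 arrays of HaCaT-EGFR at 0 h and 3 arrays of HaCaT-vector, chosen by their titles, and the cells of all 6 were grown in serum with no ligand and no inhibitor. The 6 arrays were processed on the same date as 9 further serum arrays, 3 each of HaCaT, HaCaT-p65 and HaCaT-HRAS. The sources used here do not give the promoter of the construct, or whether each line is 1 clone or a pool, so a difference between the lines and an effect of the receptor cannot be told apart by the design. Nor do they state that arrays of 1 line came from separate cultures. The p-values therefore measure only the spread between arrays, which was estimated over all 58 arrays of the series.

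EGFR is a receptor tyrosine kinase of the cell surface. On binding EGF, TGF-α, amphiregulin and related ligands it pairs with itself or another ERBB receptor and signals through the RAS and MAP kinase, PI3K and AKT, and STAT routes. In the basal epidermis it favours growth, survival and migration and restrains terminal differentiation. Serum holds growth factors of many kinds, and keratinocytes make several EGFR ligands themselves.

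Values are log2 expression values, on which a difference of 1 is a 2-fold change, and each of 19775 genes is represented by 1 probe set. A gene was called where limma's adjusted p was under 0.05 over all genes. In HaCaT-EGFR 785 genes were higher, 3.97% of all tested, and 771 were lower, 3.9% of all tested. The unadjusted p was under 0.05 for 3199 genes. A rise of at least 1 was found for 242 genes and a fall of at least 1 for 187, and 46 rises and 37 falls reached 2. The median difference over all genes was -0.0013. Of the 1556 calls, 860 also passed in each of the 6 fits that leave out 1 array. The median expression of the arrays lay between 5.07 and 5.22.

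The EGFR gene itself was read by 9 probe sets, and they did not behave alike. Probe set 210984_x_at had 7.24, 7.05 and 6.84 in HaCaT-EGFR, against 6.30, 6.12 and 5.71 in HaCaT-vector. Its difference was 1.00 ± 0.18 (SE), with an adjusted p of 0.00018 over all probe sets of the array. Probe set 211607_x_at had 7.46, 7.21 and 7.04 in HaCaT-EGFR, against 6.50, 6.34 and 5.95 in HaCaT-vector, a difference of 0.98 ± 0.17 (adjusted p = 0.00011). In both, every HaCaT-EGFR array lay above every HaCaT-vector array. The other 7 probe sets did not pass. The one with the highest mean, 224999_at, which stands for EGFR in the gene table, averaged 9.58 ± 0.17 in HaCaT-EGFR and 9.59 ± 0.11 in HaCaT-vector (SD, n = 3 each). The lowest difference was that of 201984_s_at, at -0.42 ± 0.17 (adjusted p = 0.22). It had 9.14, 9.05 and 8.99 in HaCaT-EGFR, against 9.72, 9.49 and 9.24 in HaCaT-vector, so its arrays did not overlap either, in the opposite direction. Which part of the transcript each probe set covers was not analysed here. Parental HaCaT averaged 6.49 on 210984_x_at and 9.85 on 224999_at.

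**Figure D1:**
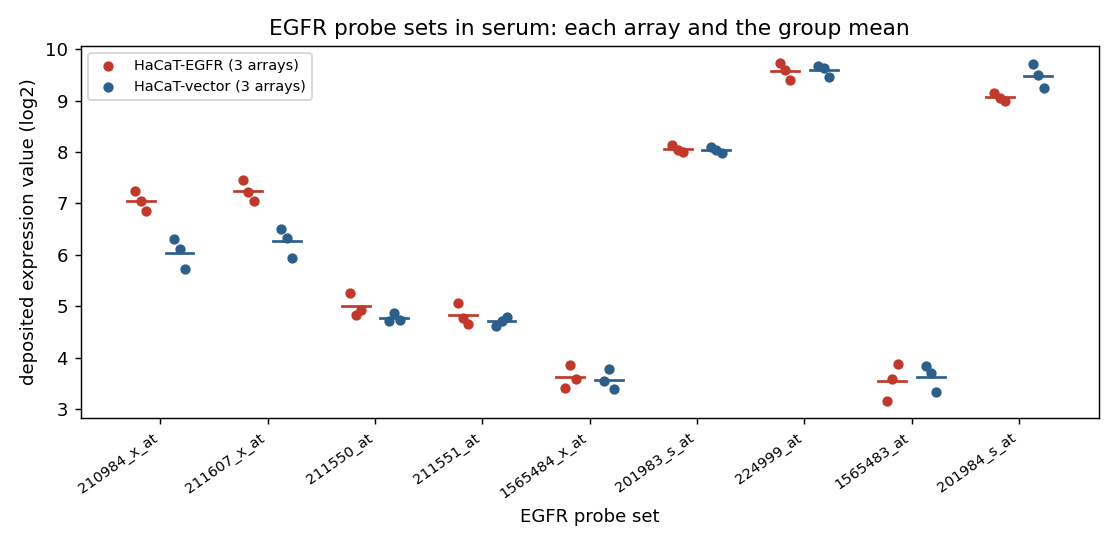
Deposited log2 values of the 9 EGFR probe sets in serum, 1 point per array with a bar at the mean of 3 arrays, HaCaT-EGFR in red and HaCaT-vector in blue. The points of HaCaT-EGFR lie above those of HaCaT-vector in 210984_x_at and 211607_x_at (differences 1.00 and 0.98) and below them in 201984_s_at (-0.42), and only the first 2 passed the test.

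Around the receptor, most genes of the pathway did not pass in serum, where 3.97% of all genes rose and 3.9% fell. None of the 3 other ERBB receptors measured passed, and ERBB2, the partner receptor with no ligand of its own, differed by 0.14 ± 0.11. Of 9 inhibitors of the receptor, PTPN1 and SOCS4 rose and none fell. PTPN1, a phosphatase that removes phosphate from receptor tyrosine kinases, had 8.93, 8.80 and 8.78 in HaCaT-EGFR, against 8.10, 8.04 and 8.02 in HaCaT-vector (difference 0.79 ± 0.11, adjusted p = 2.9e-06). SOCS4, an adaptor for receptor breakdown, differed by 0.36 ± 0.08. Among 5 ligands only TGFA passed, with 9.61, 9.88 and 9.65 in HaCaT-EGFR, against 9.06, 9.06 and 9.39 in HaCaT-vector (difference 0.54 ± 0.15, adjusted p = 0.019). That call was lost in 3 of the 6 fits that leave out an array.

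Most genes that MAP kinase signalling induces did not pass. Of 42 measured, 4 rose and 1 fell, and their median difference was 0.05. Over all genes tested 3.97% rose and 3.9% fell. LIF, a cytokine of the IL-6 family, had 7.18, 7.34 and 7.65 in HaCaT-EGFR, against 6.06, 6.04 and 6.26 in HaCaT-vector (difference 1.27 ± 0.24). DUSP5, a nuclear phosphatase of ERK, rose by 0.81 ± 0.22, PLAUR, the urokinase receptor, by 0.72 ± 0.19, and JUNB, an AP-1 subunit, by 0.43 ± 0.14. KLF10, a zinc finger factor, fell by 0.67 ± 0.20. JUNB passed in 1 of the 6 fits without an array, KLF10 in 2, PLAUR in 3 and DUSP5 in 4. EGR1 differed by 0.23 ± 0.22 and DUSP6, a classical ERK feedback gene, by 0.12 ± 0.22. On the PI3K side, FOXO1, a transcription factor that AKT keeps out of the nucleus, had 8.29, 8.17 and 8.14 in HaCaT-EGFR, against 9.82, 9.6 and 9.52 in HaCaT-vector (difference -1.45 ± 0.23, adjusted p = 2.3e-05). Of 19 genes that FOXO factors induce, PDK4 and SELENOP rose and SESN3 fell. PDK4, an inhibitor of pyruvate oxidation, differed by 2.21 ± 0.49 from a mean of 2.75 in HaCaT-vector, near the bottom of the scale, and the probe set with its highest mean over the 6 arrays gave -0.10.

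The largest differences lay outside these lists. The 15 largest rises among genes that kept their call without any 1 array ran from 2.48 to 3.84. They included 3 zinc finger genes (ZNF677, ZNF518B and ZNF570), and 8 of the 15 had a mean under 4 in HaCaT-vector, near the bottom of the scale. ZNF677 had 6.35, 6.44 and 6.52 in HaCaT-EGFR, against 2.19, 2.88 and 2.71 in HaCaT-vector. RGS4, which shortens signals of G-protein-coupled receptors, had 6.36, 6.41 and 5.82 in HaCaT-EGFR, against 2.64, 2.66 and 2.48 in HaCaT-vector. Both genes were low in every vector array and at a middle level in every EGFR array.

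PI3, which encodes the epidermal elastase inhibitor elafin, had 10.26, 10.87 and 9.66 in HaCaT-EGFR, against 7.06, 6.99 and 6.88 in HaCaT-vector (difference 3.29 ± 0.45). LEF1, the DNA-binding partner of β-catenin in Wnt signalling, had 7.63, 7.93 and 7.83 in HaCaT-EGFR, against 4.03, 5.01 and 4.76 in HaCaT-vector (difference 3.20 ± 0.39). DLC1, which switches off the GTPase RHOA, had 9.04, 9.11 and 9.19 in HaCaT-EGFR, against 6.54, 6.44 and 6.18 in HaCaT-vector (difference 2.73 ± 0.23). In these 3 genes too, every HaCaT-EGFR array lay above every HaCaT-vector array, as a choice by size of difference favours. The other rises of this group were WIPF1, a partner of the actin regulator WASP (3.14), the membrane protein gene TMEM47 (3.11), the kinase gene CDKL2 (3.11), the glutathione transferase gene GSTM3 (2.86), SMIM17 (2.83), the cadherin gene CDH10 (2.76), SLC35G2 (2.65) and LMO3, a LIM-domain cofactor of transcription (2.48).

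The 15 largest falls ran from -3.06 to -5.27. DAPK1, a calmodulin-regulated kinase of cell death, had 4.70, 5.18 and 5.03 in HaCaT-EGFR, against 10.50, 10.08 and 10.15 in HaCaT-vector (difference -5.27 ± 0.37, adjusted p = 7.5e-14). CYP24A1, the enzyme that inactivates vitamin D, had 5.04, 4.00 and 3.88 in HaCaT-EGFR, against 8.56, 7.63 and 7.53 in HaCaT-vector. FBN2, a fibrillin of the elastic microfibrils, had 8.34, 7.40 and 7.34 in HaCaT-EGFR, against 10.84, 10.57 and 10.93 in HaCaT-vector. In all 3 the arrays of the lines were far apart, as a choice by size of difference favours.

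RTL6, a gene of retrotransposon origin, had 8.12, 8.64 and 7.93 in HaCaT-EGFR, against 11.71, 11.89 and 11.66 in HaCaT-vector (difference -3.52 ± 0.26). IFNK, the interferon of keratinocytes, had 4.90, 4.95 and 4.30 in HaCaT-EGFR, against 7.92, 7.89 and 7.60 in HaCaT-vector. APCDD1, a membrane inhibitor of Wnt signalling, had 4.03, 4.61 and 4.38 in HaCaT-EGFR, against 7.14, 7.83 and 7.52 in HaCaT-vector. The remaining falls were XK (-3.78), the embryonic globin gene HBE1 (-3.60), the protocadherin gene PCDH19 (-3.58), the basement membrane collagen gene COL4A4 (-3.56), the fatty acid transporter gene SLC27A6 (-3.44), the tetraspanin gene TSPAN8 (-3.43), GIPC2 (-3.38), the matrix protein gene SPON1 (-3.34) and FRMD3 (-3.06). Where other probe sets of these 30 genes existed (39 in 21 genes), 34 differed in the same direction and 21 of them passed. For HBE1 the 1 other probe set did not have that direction, and for LEF1 the 2 others had it without passing.

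**Figure D2:**
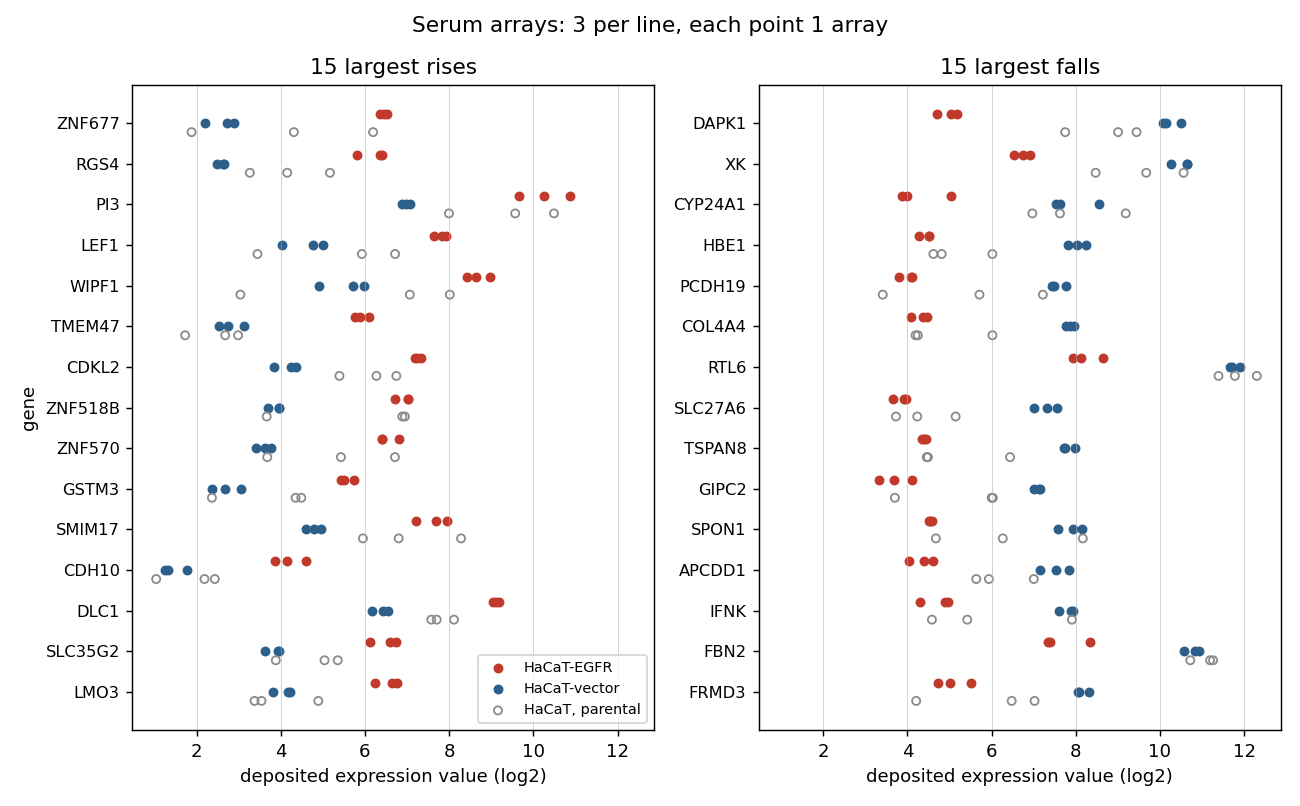
Deposited log2 values in serum of the 15 genes with the largest rises (left panel) and the 15 with the largest falls (right panel), 1 point per array, with HaCaT-EGFR in red, HaCaT-vector in blue and parental HaCaT as open circles. The 3 points of HaCaT-EGFR and the 3 of HaCaT-vector form separate clusters in every row, which the choice of genes on these arrays favours. The parental points are spread widely, with a median SD of 1.09 over the 30 genes.

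Parental HaCaT did not sit at the level of the vector line for many of these genes. Its mean was nearer to HaCaT-vector for 16 of the 30 genes and nearer to HaCaT-EGFR for 14. For example HBE1 averaged 4.43 in HaCaT-EGFR and 8.03 in HaCaT-vector, and 5.15 in parental HaCaT, while RTL6 averaged 8.23 in HaCaT-EGFR and 11.75 in HaCaT-vector, and 11.82 in parental HaCaT. The parental arrays also disagreed among themselves over these genes. Over the 30, the median SD of 3 arrays was 0.24 in HaCaT-EGFR and 0.20 in HaCaT-vector, and 1.09 in parental HaCaT, and over all genes it was 0.14 in HaCaT-EGFR and 0.13 in HaCaT-vector, and 0.21 in parental HaCaT. ZNF677 read 4.31, 1.88 and 6.19 in the 3 parental arrays, which spans nearly the whole distance between the derived lines.

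The called genes were unevenly spread over the chromosomes. On chromosome 20, 112 genes (19.7% of those tested there) were higher and 50 (8.80%) were lower in HaCaT-EGFR. On chromosome 22, 6.75% of 459 genes were higher and 13.5% lower, and on chromosome 11, 2.72% of 1102 were higher and 11.1% lower. On chromosome 19, 10.7% of 1287 were higher and 0.93% lower, and on chromosome 15, 9.48% of 612 were higher and 3.1% lower. The other chromosomes had at most 4.51% higher, on X, and at most 6.03% lower, on chromosome 16.

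To see where these genes lay, the 10094 placed genes with a mean of at least 6 over all arrays were put in their RefSeq order and cut into runs of 20 neighbours, and neighbouring runs with a median difference of at least 0.25 in the same direction were joined. This choice was made after the values were seen, so the blocks below are descriptions with no test. The ends of a block are therefore only as fine as the runs. The rule gave 15 blocks, 8 higher and 7 lower, with 1009 genes. They held 10.0% of the placed genes but 41.4% of the rises and 38.0% of the falls among them. Outside the blocks 3.79% of 9085 genes were higher and 4.28% lower, and the median difference there was 0.0036.

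Chromosome 20 carried the clearest pair of blocks. From TPX2 to ZNF217, 126 genes had a median difference of 0.80, and 101 of them rose while 2 fell. Relative to each gene's mean over the 6 arrays, the median of this block was 0.39, 0.40 and 0.40 in HaCaT-EGFR, against -0.38, -0.38 and -0.41 in HaCaT-vector. The next placed gene along the chromosome is CYP24A1, and from there to PCMTD2, 63 genes had a median difference of -0.57, with 0 rises and 43 falls. That block read -0.26, -0.25 and -0.28 in HaCaT-EGFR, against 0.23, 0.30 and 0.26 in HaCaT-vector.

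On chromosome 11, 225 genes from ZFTA to DDX10 had a median of -0.33 (2 rose and 80 fell) and 42 genes from CELF1 to TMEM258 had -0.29, whereas the 20 genes from ZC3H12C to RBM7, just beyond DDX10, had 0.48 (12 rose and 1 fell). On chromosome 15, 61 genes from CSK to ISG20 had a median of 0.51, with 36 rises and 0 falls. On chromosome 22 there were 5 blocks, and the one from PDGFB to CERK had -0.52 over 63 genes, with 0 rises and 44 falls. On chromosome 19, 160 genes from FBXO46 to CENPBD2P had 0.37 and 40 genes from CEACAM6 to APOE had 0.39. On chromosome 16, 40 genes from COTL1 to DRC4 had -0.45, and on chromosome 8, 84 genes from TATDN1 to C8orf33 had -0.30. In each of the 15 blocks the 3 arrays of the lines did not overlap. The blocks were chosen by their difference in these same arrays, which favours such a separation.

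The level limit set the size of these medians. Over genes of any level between the same ends, the medians of all 15 blocks kept their direction but were smaller, for example 0.39 for TPX2 to ZNF217 and -0.26 for CYP24A1 to PCMTD2. DNA copy number was not measured in these data, and its part in the blocks was not tested.

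**Figure D3:**
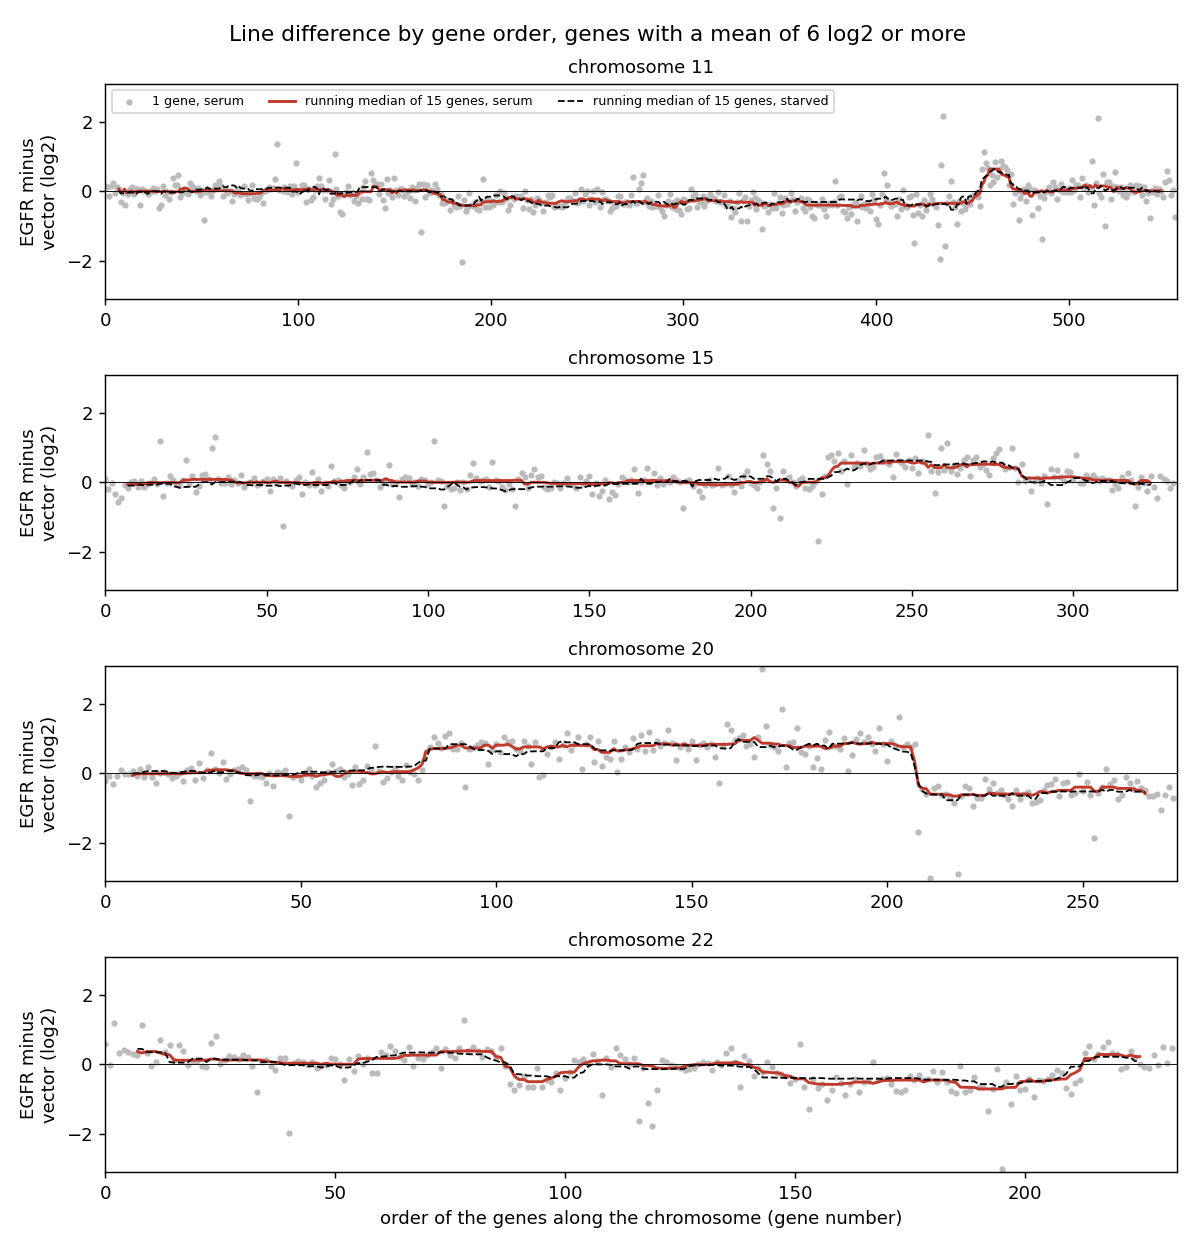
Difference between HaCaT-EGFR and HaCaT-vector (log2) against the order of genes along chromosomes 11, 15, 20 and 22, for genes with a mean of at least 6. Grey points are single genes in serum (values beyond 3 are drawn at 3), the red line is the running median of 15 genes in serum and the dashed line that in serum-starved arrays. On chromosome 20 the line steps up to about the block median of 0.80 and then down to about -0.57, and the starved line follows it.

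**Figure D4:**
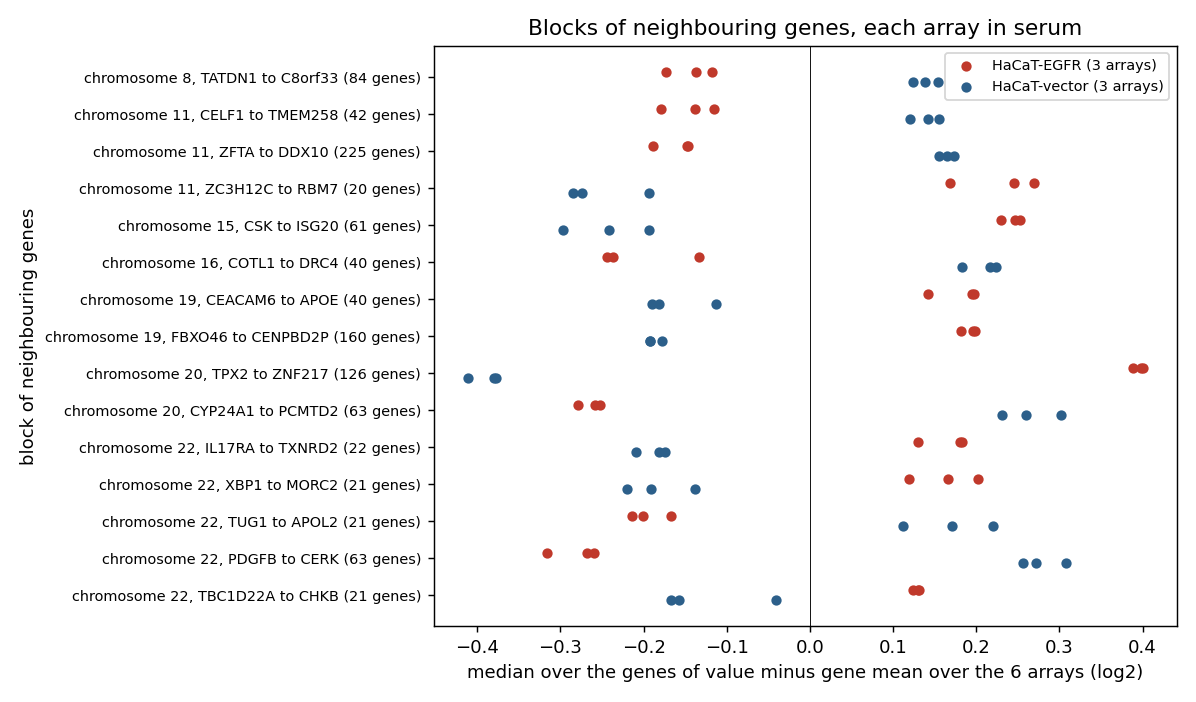
Median over the genes of each of the 15 blocks of the log2 value minus the gene's mean over the 6 arrays, 1 point per array, HaCaT-EGFR in red above HaCaT-vector in blue. The 3 points of each line lie on opposite sides in every block, furthest apart for TPX2 to ZNF217 on chromosome 20. The choice of blocks on these same arrays favours this.

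The blocks were also seen in arrays whose values do not enter the serum difference, though they share in its SEs. In serum-starved cells (7 arrays of HaCaT-EGFR and 4 of HaCaT-vector, from other processing dates) all 15 block medians had the same sign. The block from TPX2 to ZNF217 had 0.78 when starved, the one from CYP24A1 to PCMTD2 -0.57, the one from CSK to ISG20 0.55 and the one from ZFTA to DDX10 -0.31. The block on chromosome 16 was the weakest there, at -0.11. Most starved arrays of the lines came from different dates, so their difference leans on the removal of the date. On the date that held both lines, TPX2 to ZNF217 had 0.79, CYP24A1 to PCMTD2 -0.55 and the chromosome 16 block -0.09. Set against parental HaCaT in serum, TPX2 to ZNF217 was 0.32 in HaCaT-EGFR and -0.47 in HaCaT-vector, and CSK to ISG20 was 0.06 in HaCaT-EGFR and -0.47 in HaCaT-vector. PDGFB to CERK was -0.45 in HaCaT-EGFR and 0.09 in HaCaT-vector. These values share the parental arrays and are given side by side only.

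Several genes described here lie within these blocks. Of the 30 genes with the largest differences, 5 do so (ZNF677, PI3, SMIM17, CYP24A1 and RTL6), as do PTPN1, LIF, PLAUR and SESN3 of the receptor, MAP kinase and FOXO lists. Over genes of any level, 34.0% of the 1556 calls lay between the ends of the blocks, which hold 10.0% of the genes tested. Outside them 2.84% of genes were higher and 2.93% lower.

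Zinc finger genes named ZNF, many of which encode repressors of transcription, were counted after the leading genes were seen. Of those tested, 70 rose, 7 fell and 389 did not pass, and their median difference was 0.12. Over all genes tested 3.97% rose and 3.9% fell. On chromosome 19, where the family sits in clusters, 56 of 220 rose and 0 fell, with a median of 0.29. Among all genes of chromosome 19, 10.7% rose, and in its block from FBXO46 to CENPBD2P 35% did. A shift of the family and a shift of the region were not separated here. Among the rest, on other chromosomes or left unplaced, 14 of 246 rose and 7 fell, with a median of 0.04. ZNF331, in the block from FBXO46 to CENPBD2P, differed by 1.66.

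More genes of the amino acid response fell than rose in HaCaT-EGFR, and most did not pass. ATF4 is a transcription factor whose translation rises when amino acids are short or the endoplasmic reticulum is stressed, and it induces enzymes of amino acid synthesis, transporters and tRNA ligases. Of 56 genes of this list, 15 fell, 2 rose and 39 did not pass, and 13 of the 56 differences were positive. Over all genes tested 3.9% fell and 3.97% rose. The median difference was -0.22. ATF4 itself had 11.81, 11.36 and 11.78 in HaCaT-EGFR, against 12.87, 13.01 and 12.90 in HaCaT-vector (difference -1.28 ± 0.13, adjusted p = 1.3e-09). It lies in the block from PDGFB to CERK, whose median was -0.52.

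Of 16 enzymes of synthesis, 5 fell and none rose. ASNS, which makes asparagine, had 10.42, 9.43 and 9.48 in HaCaT-EGFR, against 11.87, 11.34 and 10.82 in HaCaT-vector (difference -1.57 ± 0.30). CBS, the first enzyme of transsulfuration, had 6.87, 6.63 and 6.31 in HaCaT-EGFR, against 8.17, 7.82 and 7.71 in HaCaT-vector (difference -1.30 ± 0.20). ASS1, the argininosuccinate synthase of the urea cycle, had 8.85, 8.64 and 8.81 in HaCaT-EGFR, against 10.69, 10.87 and 10.65 in HaCaT-vector (difference -1.97 ± 0.53). On the 15 serum arrays alone the ASS1 call was lost (adjusted p = 0.20). The parental mean of ASS1 was below those of both lines, but its arrays varied widely, at 7.44 ± 2.35 (SD, n = 3). In none of these 3 genes did the arrays of the lines overlap, which naming genes that passed on these arrays favours.

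Among 9 transporters, the differences were -1.68 ± 0.28 for SLC1A4, -0.89 ± 0.18 for SLC7A5 and -0.55 ± 0.15 for SLC3A2, the last 2 being the chains of 1 carrier of large neutral amino acids. SLC7A5 lies in the chromosome 16 block, which had a median of -0.45. Of 11 tRNA ligases 4 fell (YARS1, CARS1, AARS1 and LARS1), by 0.41 to 0.49, and AARS1 passed in 0 of the 6 fits without an array. Of 12 stress effectors, CHAC1, which degrades glutathione, fell by 1.25 ± 0.31, and DDIT4, an inhibitor of mTORC1, fell by 1.16 ± 0.20, while DDIT3 differed by 0.09 ± 0.24. The 2 rises were transcription factors, CEBPB at 0.92 ± 0.18, in the block from TPX2 to ZNF217, and ATF5 at 0.54 ± 0.15, in the block from FBXO46 to CENPBD2P. The count of falls rested on single arrays in part. It was 8 without HaCaT-vector replicate 1, 8 without HaCaT-EGFR replicate 3 and 8 on the 15 serum arrays alone, instead of 15, and 8 of the 15 passed in each of the 6 fits without an array. In starved cells the list's median was -0.11, with ASNS at -1.78 and ATF4 at -0.64.

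The promoters of this group show a shared motif in part of its members. ATF4 binds with C/EBP partners to sites whose core resembles TGATGNAA, and this core was sought on both strands of RefSeq promoter windows (GRCh38.p14, from 250 bases before to 50 after the start). It was found in 3.61% of the 15382 tested genes with a window. Of 48 list genes with a window it was found in 18, that is in 6 of the 15 that passed the test and in 12 of the 33 that did not. 120 bases upstream of the start are given for 2 of the genes that fell, with the core in capitals (in CHAC1 it reads on the opposite strand). They show how differently the core can be placed, 68 bases before the start in ASNS (chr7:97872413-97872532, minus strand) and 209 in CHAC1 (chr15:40953221-40953340, plus strand).
ASNS: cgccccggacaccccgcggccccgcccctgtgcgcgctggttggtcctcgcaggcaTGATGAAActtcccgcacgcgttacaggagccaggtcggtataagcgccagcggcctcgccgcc
CHAC1: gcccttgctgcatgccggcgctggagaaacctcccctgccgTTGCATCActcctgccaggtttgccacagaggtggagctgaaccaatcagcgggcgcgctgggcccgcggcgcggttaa

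Interferon-stimulated genes, which cells switch on against viruses, gave a small set of rises. Of 42 measured, 5 rose, 1 fell and 36 did not pass, the median difference was 0.28 and 31 of the 42 were positive. The shares over all genes were 3.97% higher and 3.9% lower. HERC5, a ligase for the ISG15 modifier, had 8.43, 8.80 and 8.42 in HaCaT-EGFR, against 7.11, 6.63 and 6.73 in HaCaT-vector (difference 1.73 ± 0.27, adjusted p = 1.6e-05). IFI44 had 9.2, 9.73 and 9.53 in HaCaT-EGFR, against 7.86, 7.81 and 8.09 in HaCaT-vector (difference 1.57 ± 0.38), and its call was lost on the 15 serum arrays alone (adjusted p = 0.062). RSAD2, the antiviral enzyme viperin, had 9.49, 10.88 and 10.00 in HaCaT-EGFR, against 8.56, 8.72 and 8.90 in HaCaT-vector (difference 1.40 ± 0.29). These 3 genes did not overlap between the lines, but they were named because they passed on the same arrays.

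USP18, which removes ISG15, rose by 1.13 ± 0.25 and lies in a chromosome 22 block with a median of 0.33. IFIT1, a sensor of foreign RNA, rose by 0.94 ± 0.31 and passed in 1 of the 6 fits without an array, as did SAMD9L, which fell by 0.87 ± 0.27. On the 15 serum arrays alone 3 of the list rose instead of 5. ISG15 differed by 0.55 ± 0.29 and MX1 by 0.30 ± 0.36. In starved cells the median of the list was -0.28. The change of sign was tested gene by gene as an interaction, and RSAD2 passed (serum minus starved 2.09 ± 0.43, adjusted p = 0.015) while HERC5 missed the threshold (adjusted p = 0.070).

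Interferon-driven factors bind a motif written here as GAAA, then NN, then GAAA. It was found on either strand in 3.98% of the 15382 tested genes with a window, and in 23 of the 32 interferon list genes with one. It stood in 4 of the 5 that passed (HERC5, IFI44, IFIT1 and RSAD2) and in 19 of the 27 that did not. 120 upstream bases are given for 2 of these risers, with the matches in capitals and read on the opposite strand, 1 in IFI44 (chr1:78649669-78649788, plus strand) and 2 side by side in IFIT1 (chr10:89392458-89392577, plus strand).
IFI44: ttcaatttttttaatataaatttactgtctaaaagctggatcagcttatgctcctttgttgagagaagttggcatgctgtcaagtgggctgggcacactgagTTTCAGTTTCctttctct
IFIT1: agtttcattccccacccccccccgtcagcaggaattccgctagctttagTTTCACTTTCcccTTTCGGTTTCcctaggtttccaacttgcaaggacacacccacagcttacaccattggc

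**Figure D5:**
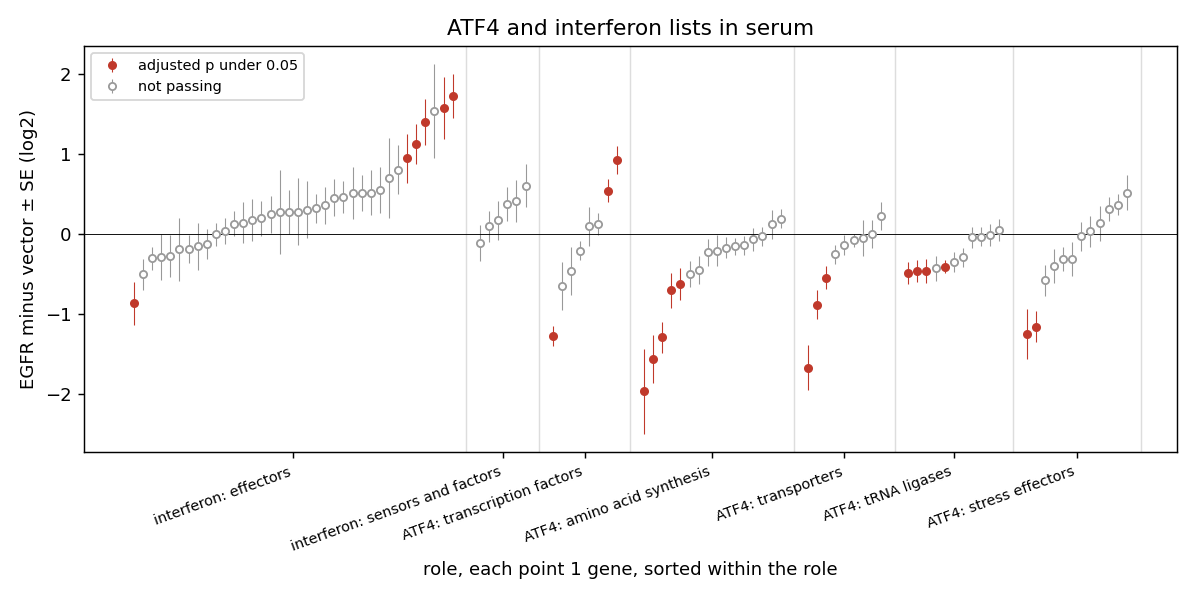
Difference between HaCaT-EGFR and HaCaT-vector in serum (log2, ± SE of the fit on 58 arrays) for each gene of the interferon list and the ATF4 list, grouped by role and sorted within it, with filled points for genes past the adjusted p of 0.05. Filled points lie mostly above 0 among the interferon effectors (5 of 6) and mostly below 0 in the ATF4 list (15 of 17).

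Wnt, BMP and TGF-β genes held large single differences rather than a common shift. Of 43 Wnt genes 3 rose and 2 fell, with a median of -0.07, where 3.97% of all genes rose and 3.9% fell. Beside LEF1 and APCDD1, the receptor gene FZD3 had 6.67, 7.10 and 6.69 in HaCaT-EGFR, against 5.49, 6.12 and 5.36 in HaCaT-vector (difference 1.17 ± 0.27), and FZD4, another receptor of the family, differed by -0.94 ± 0.19. ZNRF3, a ligase that removes Wnt receptors, rose by 0.49 ± 0.13. Of 30 TGF-β and BMP genes 3 rose and 5 fell. BMP7, a ligand of the BMP receptors, had 4.90, 4.97 and 4.73 in HaCaT-EGFR, against 7.74, 7.86 and 7.71 in HaCaT-vector (difference -2.90 ± 0.24, adjusted p = 1.4e-11). ID4, an inhibitor of helix-loop-helix factors that BMP signals induce, had 4.57, 4.05 and 4.49 in HaCaT-EGFR, against 7.54, 7.20 and 7.22 in HaCaT-vector (difference -2.95 ± 0.32). BAMBI, a decoy receptor, differed by -1.36 ± 0.24, CCN2, a matricellular protein, by -1.26 ± 0.31 and BMP2 by -0.79 ± 0.18. The rises were LTBP2 (1.36 ± 0.30), FST, the follistatin that binds activin (0.73 ± 0.19), and TGFBI (0.57 ± 0.18). BMP7 lies in the chromosome 20 block with the median of -0.57.

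Among matrix genes and proteases the directions were mixed. FN1, fibronectin, had 8.92, 9.14 and 8.72 in HaCaT-EGFR, against 7.75, 7.76 and 7.46 in HaCaT-vector (difference 1.27 ± 0.29). TIMP1, an inhibitor of metalloproteinases, had 8.22, 8.64 and 8.38 in HaCaT-EGFR, against 6.88, 7.23 and 6.91 in HaCaT-vector (difference 1.40 ± 0.15, adjusted p = 3.0e-09). The collagenase gene MMP1 had 6.54, 6.65 and 6.03 in HaCaT-EGFR, against 4.40, 3.93 and 4.37 in HaCaT-vector (difference 2.17 ± 0.49), and parental HaCaT averaged 8.65, above both lines. MMP7 (-1.95 ± 0.37), MMP13 (-1.57 ± 0.50) and MMP2 (-0.55 ± 0.14) were lower, and MMP13 passed in 0 of the 6 fits without an array. On the 15 serum arrays alone 1 gene of the protease and inhibitor list fell instead of 3.

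Of 14 basement membrane matrix genes 3 fell and none rose, where 3.97% of all genes rose and 3.9% fell. NID2, a nidogen, differed by -1.38 ± 0.19, and the collagen chain genes COL4A1 and COL4A2, which share a promoter region, by -0.74 ± 0.16 and -0.77 ± 0.16. Mesenchymal genes split 4 to 4 among 34, with VIM, vimentin, at 0.91 ± 0.27 and passing in 1 of the 6 fits, LOXL2, a matrix cross-linking oxidase, at -1.80 ± 0.20 and SPARC at -1.06 ± 0.19. For LOXL2 another probe set, the brighter one over the 6 arrays, gave 0.02. The Eph receptor genes EPHA3 (2.21 ± 0.39) and EPHA7 (1.80 ± 0.39) were higher, and none of the 18 Eph and ephrin genes was lower.

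Most genes of the programmes that define a keratinocyte did not pass, where over all genes 3.97% rose and 3.9% fell. None of 24 junction genes passed, nor did any of 14 cornified envelope proteins or 12 S100 genes, and CDH1, E-cadherin, differed by 0.04 ± 0.11. Among 15 enzymes and inhibitors of the upper epidermis, PI3 rose and KLK7, a protease of skin shedding, fell, with 8.82, 9.23 and 8.91 in HaCaT-EGFR, against 10.00, 10.60 and 10.29 in HaCaT-vector (difference -1.31 ± 0.21). SLPI, a leukocyte protease inhibitor that lies with PI3 in the block from TPX2 to ZNF217, rose by 1.37 ± 0.25. KRT14, the basal keratin, differed by -0.72 ± 0.21 and passed in 2 of the 6 fits without an array. CRABP2, the retinoic acid carrier of the epidermis, rose by 1.6 ± 0.30.

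The keratinocyte markers were high in both lines, with array medians over the 6 genes of 12.03 to 12.11 in HaCaT-EGFR and 11.95 to 12.14 in HaCaT-vector. For markers of leukocytes and endothelium the array medians lay between 4.11 and 4.68 in HaCaT-EGFR and between 4.08 and 4.66 in HaCaT-vector. None of these genes passed, and the highest single marker, CLDN5, averaged 5.69 in HaCaT-EGFR and 5.67 in HaCaT-vector. Of 8 fibroblast markers COL3A1 passed (2.24 ± 0.53), at 5.18 in HaCaT-EGFR and 2.94 in HaCaT-vector, but the probe set with its highest mean over the 6 arrays gave 0.028 and did not pass. The array medians of these markers were 5.1 to 5.28 in HaCaT-EGFR and 4.94 to 5.06 in HaCaT-vector. Of 6 melanocyte markers MITF passed (-0.94 ± 0.16), while TYRP1 was at 3.07 in HaCaT-EGFR and 3.24 in HaCaT-vector. In arrays of whole cultures, fewer cells of a type and less RNA per cell cannot be told apart.

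HOX genes keep the positional identity of cells. Of 24 measured, 5 rose, none fell and 19 did not pass, and 18 of the differences were positive. Among all genes tested 3.97% rose and 3.9% fell. HOXB7 had 8.78, 8.94 and 8.74 in HaCaT-EGFR, against 7.88, 8.12 and 7.97 in HaCaT-vector (difference 0.83 ± 0.11), and its neighbour HOXB6 differed by 1.08 ± 0.18. From the HOXD cluster, HOXD10 had 9.38, 9.18 and 9.46 in HaCaT-EGFR, against 8.49, 8.49 and 8.28 in HaCaT-vector (difference 0.92 ± 0.10), with HOXD8 at 1.41 ± 0.29 and HOXD9 at 0.64 ± 0.15. All 5 passed in each of the 6 fits without an array, and none lies in a block. When starved, HOXD10 differed by -0.02, and the change between media passed (0.94 ± 0.15, adjusted p = 0.0006).

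Most cell cycle genes did not pass. Of 62 measured, 4 rose and 1 fell, and the median difference was 0.02. For comparison, 3.97% of all genes rose and 3.9% fell. UBE2C, which directs proteins to destruction at the end of mitosis, had 9.14, 9.39 and 9.32 in HaCaT-EGFR, against 8.36, 8.39 and 8.36 in HaCaT-vector (difference 0.91 ± 0.14). TPX2, a spindle factor, differed by 0.88 ± 0.17 and E2F1, a factor of S-phase entry, by 0.68 ± 0.20. These 3 genes lie in the chromosome 20 block with the median of 0.80, so their shift was close to that of their neighbours. AURKA, the mitotic kinase that TPX2 activates, lies in the other chromosome 20 block and differed by -0.62 ± 0.21 (adjusted p = 0.065). GINS2, of the replication helicase, fell by 0.69 ± 0.18 in the chromosome 16 block, and CCNE1 rose by 0.67 ± 0.18 outside the blocks.

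Of 14 genes of the BCL2 family 4 rose, 1 fell and 9 did not pass, where 3.97% of all genes rose and 3.9% fell. BCL2L1, which guards the mitochondrion against death signals, had 9.12, 9.16 and 9.27 in HaCaT-EGFR, against 8.03, 8.27 and 8.11 in HaCaT-vector (difference 1.05 ± 0.21), and is the placed gene just before TPX2, outside the block. The pro-death members BAX (0.48 ± 0.14) and BID (0.37 ± 0.12) rose in blocks of chromosomes 19 and 22, and BIK, in the chromosome 22 block from PDGFB to CERK, fell by 0.37 ± 0.12. BAX passed in 2, BID in 1 and BIK in 0 of the 6 fits without an array. PMAIP1 rose by 0.50 ± 0.14 outside the blocks, and none of 14 death receptors and caspases passed.

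In the NF-κB list 4 of 36 genes rose and 1 fell, where 3.97% of all genes rose and 3.9% fell. The chemokine gene CXCL2 rose by 1.14 ± 0.29, IL1B by 0.71 ± 0.22, the complement gene C3 by 0.88 ± 0.25 and CSF3 by 0.55 ± 0.16, while CXCL5 fell by 2.03 ± 0.49. IL1B and C3 passed in 2 and CXCL2 and CSF3 in 3 of the 6 fits without an array. The CXCL5 call was lost without HaCaT-EGFR replicate 1. On the 15 serum arrays alone 1 gene of this list rose and 0 fell. None of 11 subunits and inhibitors of NF-κB passed. In metabolism, SLC2A3, a glucose transporter, differed by -1.59 ± 0.22 and was the only one of 28 hypoxia and glycolysis genes to pass. SREBF1 and SREBF2, the regulators of lipid synthesis, differed by -0.77 ± 0.22 and -0.45 ± 0.11. Of 24 NRF2 targets, NQO1 and GCLM rose by 0.64 ± 0.14 and 0.49 ± 0.12 and 22 did not pass, with a median of -0.02 and 10 positive differences. GCLM passed in 4 of the 6 fits without an array.

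The difference between the lines was mostly kept without serum. Of the 1556 calls, 1482 had the same sign in the starved arrays, and 811 passed there in the same direction, which is 52.1% of the serum calls and 52.0% of the 1560 starved calls. The starved arrays are other arrays of the same lines. Of the 30 genes with the largest differences, 29 had the same sign and 26 passed. On the starved date that held both lines, 29 had the same sign. A change between media passed for 47 genes in all, 4 of them among the 30.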

How the data were processed

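Each array is an Affymetrix U133 Plus 2.0 chip. The authors deposited log2 values made with fRMA, from which they had taken out, by a limma model, the part due to the processing date. They were used unchanged. Both lines share 1 date here, so that correction cannot alter their difference. The labels give one-cycle labelling and the study's sample sheet another amplification kit, a conflict the sources used here do not settle.

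A single gene symbol was given for 41097 probe sets, more than 1 for 1801, and 11777 had no symbol. Of the single-symbol probe sets 41043 matched the RefSeq table of GRCh38.p14 by Entrez ID, used for names and gene order. For order, 292 genes whose coordinates may be those of an alternate scaffold were left unplaced. For each of 19775 genes, the probe set brightest on average over 58 arrays was kept. The linear model (limma 3.58.1, run in R 4.3.3) had a term for each of 19 conditions and 6 dates (35 residual degrees of freedom), with Benjamini-Hochberg adjustment over all genes. On simulated data with this design it recovered 40%, 84%, 98% and 100% of genes changed by 0.5, 1, 1.5 and 2. Summaries and plots used Python 3.11.15, pandas 2.3.3, numpy 2.4.6 and matplotlib 3.10.9.

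Same-numbered arrays deviated together (correlations of 0.53, 0.22 and 0.22 over genes), though HaCaT-EGFR 3 and HaCaT-vector 2 correlated as highly (0.23). As every same-numbered pair of these lines was above 0.1, the replicate numbers in the titles were taken as a possible pairing. Against parental HaCaT this did not always hold, as for HaCaT-EGFR 2 with HaCaT 2 (-0.033). The main fit held no replicate term, and the paired fit was run as an alternative. Other alternatives were the array set, centring, the probe set choice, a low-value filter at 5, limma's trend and robust options, and leaving out each array.

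The 33 gene lists held 908 symbols, and 73 were not analysed here. The members and lists were chosen with earlier results of these data known. Named genes were EGFR, the 15 largest rises and falls that passed without any 1 array, and in each list up to 5 called members and its defining genes. Others were chosen after their values were seen.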

Additional observations from a re-analysis of the deposited data

Results flagged for a closer look

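The line difference of 4 of the 30 genes with the largest differences changed between serum and starvation by the test of the interaction. For SLC27A6 the difference was -3.44 in serum and 0.03 when starved, so that serum minus starved was -3.48 (adjusted p = 2.4e-09). FBN2 gave -3.08 in serum and -0.52 when starved (serum minus starved -2.57, adjusted p = 1.1e-06). For APCDD1 the values were -3.16 in serum and -0.61 when starved (serum minus starved -2.55, adjusted p = 0.0022). TMEM47 gave 3.11 in serum and 0.80 when starved (serum minus starved 2.31, adjusted p = 0.0051).

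In 2 of 60 groups of starved arrays searched, each of the 30 genes in 2 lines, 1 array stood far from the others, where chance gives about 1 in 20. XK read 9.00 in 1 of 4 starved HaCaT-vector arrays, against 8.75 to 8.79 in the other 3. PCDH19 read 6.27 in 1 of 4 starved HaCaT-vector arrays, against 6.66 to 6.70 in the other 3. With 3 arrays per line in serum no such search was made there.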

How the results depend on the processing

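The count of called genes stayed within 1.5 times its main value under every alternative, from 1124 on the 15 serum arrays alone to 1717 with the replicate block, which shared 1551 of the 1556 calls. It was 1529 on the 6 arrays alone, 1456 with arrays centred on their medians, 1346 with the mean of all probe sets of a gene, and 1168 to 1296 without 1 array. Centring gave 804 higher and 652 lower. The genes called changed more than their count. The 6 arrays alone shared 1207 of the 1556 main calls, the mean of all probe sets 1151 and the 15 serum arrays 1023. The 30 genes with the largest differences kept their call in all 419 refits in which they could be tested. Passing the 6 fits without an array was required of these genes, so those refits could not fail. Choosing genes by size of difference on the same arrays favours the rest. For the 141 named list members and leading genes together, 1716 of 1968 refits kept the call, 250 lost it and 2 reversed. The reversals were LOXL2 (0.025) and PDK4 (-0.10), both with the probe set of highest mean over the 6 arrays. Of single genes only BID lost its call with the paired fit (adjusted p = 0.05004). On the 15 serum arrays the lost calls included those of ASS1 (adjusted p = 0.20), IFI44 (0.062) and TGFA (0.058). Other lists lost calls there too, for example the NF-κB list (1 higher instead of 4 and 0 lower instead of 1).

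EGFR probe sets near 0 changed sign when 1 array was left out. They ran from -0.073 to 0.15 (1565484_x_at), from -0.023 to 0.050 (201983_s_at), from -0.093 to 0.073 (224999_at, 0.0088 when centred) and from -0.25 to 0.11 (1565483_at). The 15 block medians were recomputed with centring, at any level and without each array, which gave 120 values. Of these 91 stayed within the spread between arrays, 29 moved beyond it and 0 reversed, and the 29 include all 15 at any level. Blocks of 10 or 40 genes per run held 1002 or 978 genes. The number of arrays limits the precision, and a gene that moved by 0.5 would often be missed.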

Other observations

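Genes whose line difference depended on the medium were chosen after their values were seen, as the 47 genes past the interaction test. RSAD2, HOXD10, ID4 and the 4 described above were already given. ID4 was lower in HaCaT-EGFR in both media, by -2.95 in serum and -5.58 when starved. DNAJB6, a chaperone, was higher in both, by 1.73 in serum and 0.72 when starved (interaction 1.01 ± 0.16, adjusted p = 0.00033). ARHGEF6, an exchange factor for RAC and CDC42, was higher in serum by 2.33 and differed by -0.76 when starved, where it did not pass. PPARGC1A, a coactivator of mitochondrial genes, was lower by -0.80 in serum and by -2.77 when starved. ID3, an inhibitor of helix-loop-helix factors related to ID4, differed by 0.06 in serum, which did not pass, and by -1.84 when starved. PCDH10 was higher in both media, by 1.27 in serum and 3.43 when starved. The starved arrays came from other processing dates than the serum arrays, so medium and date cannot be told apart here.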
